A study of Mus musculus with 13 samples.

Results

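The draining lymph nodes of tumour-bearing mice were compared between animals in which Jag1 had been targeted in Foxp3-expressing cells and their controls, using all genes of the deposited node counts. The comparison holds 6 of the 13 samples of the series, namely 3 Foxp3ΔJag1 nodes and 3 Foxp3Ctrl nodes, each a whole node sequenced in bulk. Samples were taken into a group by their labels, and no measured value chose them. Foxp3ΔJag1 mice carried Foxp3eGFP-Cre-ERT2, a tamoxifen-inducible Cre made by Foxp3-expressing cells, with both Jag1 alleles floxed, per the design text. For the Foxp3Ctrl mice one label gives WT and the design text gives Foxp3eGFP-Cre-ERT2 with Jag1 fl/wt, so their genotype is not settled here. Both groups were female, and from 6 to 8 weeks of age they were given tamoxifen 5 times (0.1 mg for each gram the animal weighed), followed by 9 days without it. Both were then injected in the skin of the left flank with 200000 B16F10 cells, a mouse melanoma line, in matrigel, at 6 to 11 weeks of age. Nothing in the labels says how the mice of a group were related, so the p-values measure the spread between these samples.

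Jagged-1, the product of Jag1, is a membrane ligand that activates Notch receptors on neighbouring cells. The cleaved receptor enters the nucleus and, with the DNA-binding protein RBPJ, switches on genes of the Hes and Hey families. Regulatory T cells (Tregs), which are defined by Foxp3, restrain immune responses, and a draining node is where antigen and cells arriving from a tumour by lymph meet lymphocytes.

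The node libraries held 33157236 to 44540888 counts each and carried the markers of a lymph node. Cd79a, a chain of the B cell receptor, was at 734 to 840 CPM (counts in each 1000000 of the library), Tcf7, a T cell transcription factor, at 447 to 563 CPM, and Glycam1, a product of high endothelial venules, at 1441 to 2403 CPM. Replicates were less alike among controls: of 10149 genes with a mean of at least 10 CPM, 70.95% had the larger SD of log2 CPM among Foxp3Ctrl nodes. Ccl21a, a lymphatic and stromal chemokine gene with near-identical copies, stood at 0.0275 to 0.121 CPM. One library stood apart from the rest. Xist, the RNA that coats the inactive X chromosome, was at 934, 655 and 1114 CPM in Foxp3Ctrl nodes 1, 2 and 3 and at 982, 978 and 91.2 CPM in Foxp3ΔJag1 nodes 1, 2 and 3. The same node was lowest for 3 of the 4 X-linked genes with a Y-linked partner that were examined. Kdm6a was at 67.4 CPM there and at 95.7 to 109 CPM in the other 5 nodes, Kdm5c at 149 CPM against 198 to 205 CPM, and Eif2s3x at 87.2 CPM against 107 to 123 CPM. Ddx3x, at 402 CPM, lay within the range of the others (372 to 442 CPM), and the Y-linked Ddx3y, Uty, Eif2s3y and Kdm5d had no count in any node. The median of 282 X-linked protein-coding genes in this node was 0.03 above the mean of the other nodes on the log2 scale. This check was chosen after the data were seen. Without that node 5 genes were called higher and 1 lower.

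**Figure D1:**
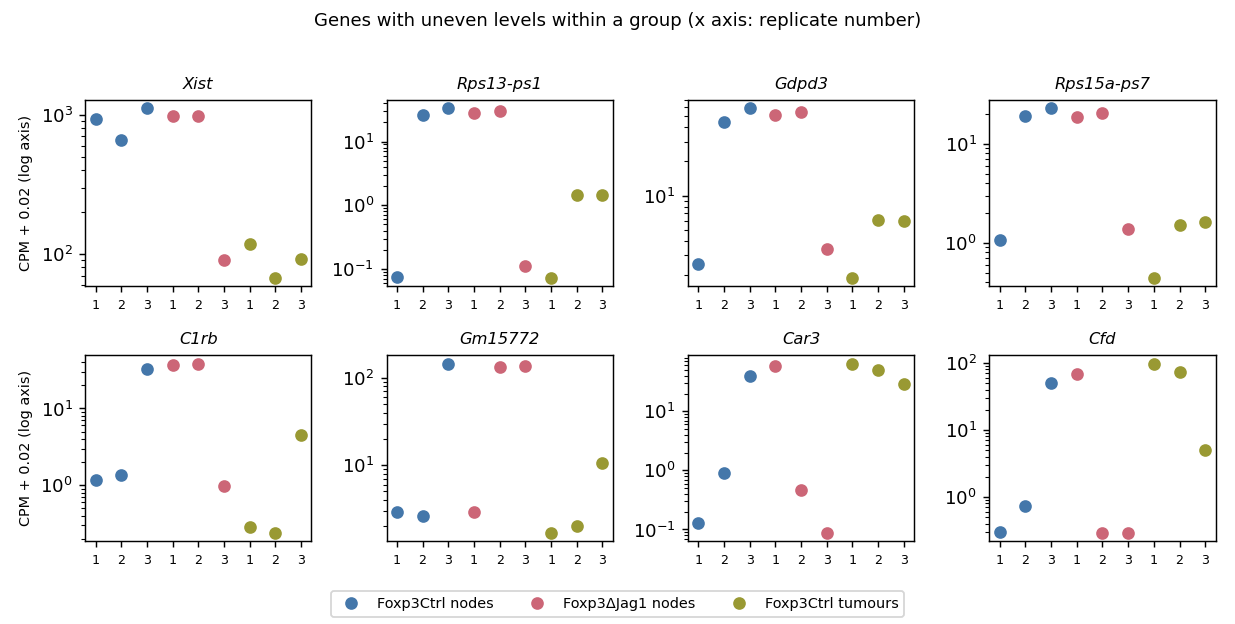
CPM plus 0.02 on a log axis for Xist and 7 genes with a large spread within groups, in each Foxp3Ctrl node, Foxp3ΔJag1 node and Foxp3Ctrl tumour, 1 point per library. Xist is at 91.2 CPM in Foxp3ΔJag1 node 3 and at 655 CPM or more in the other nodes, and the remaining genes are high in some nodes of both groups and low in others.

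The targeted gene did not differ at the level of the whole node. Jag1 (chromosome 2, 137081456 to 137116644) was at 22.0, 23.2 and 24.4 CPM in the Foxp3Ctrl nodes and at 27.8, 20.7 and 23.8 CPM in the Foxp3ΔJag1 nodes. The groups overlapped, and the 95% interval of the log2 fold change was -0.23 to 0.29 (edgeR adjusted p = 0.984). Foxp3 itself was at 12.2, 18.0 and 18.0 CPM in Foxp3Ctrl nodes and at 23.8, 17.8 and 17.5 CPM in Foxp3ΔJag1 nodes, again with overlap. Counts were summed over each gene, so the floxed exons could not be read apart from the rest of Jag1, and Tregs are a minority of the cells in a node.

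Of 18440 genes tested, 6 were called higher in Foxp3ΔJag1 nodes (0.0325%) and 1 lower (0.00542%) at an FDR of 0.05. An unadjusted p under 0.05 was reached by 581 genes (3.15%) and one under 0.01 by 116 (0.629%). In 758 genes (4.11%) every Foxp3ΔJag1 node was above every Foxp3Ctrl node, and in 587 (3.18%) every one was below. The median log2 fold change over all genes was -0.0045. Of 9776 protein-coding genes with a mean of at least 10 CPM, 97.98% had a 95% interval that lay within a 2-fold change in either direction. DESeq2 called 27 higher and 43 lower, and the 7 genes called by edgeR were among them. The separation of these 7 from the other genes can be seen in the plot of fold change against p.

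**Figure D2:**
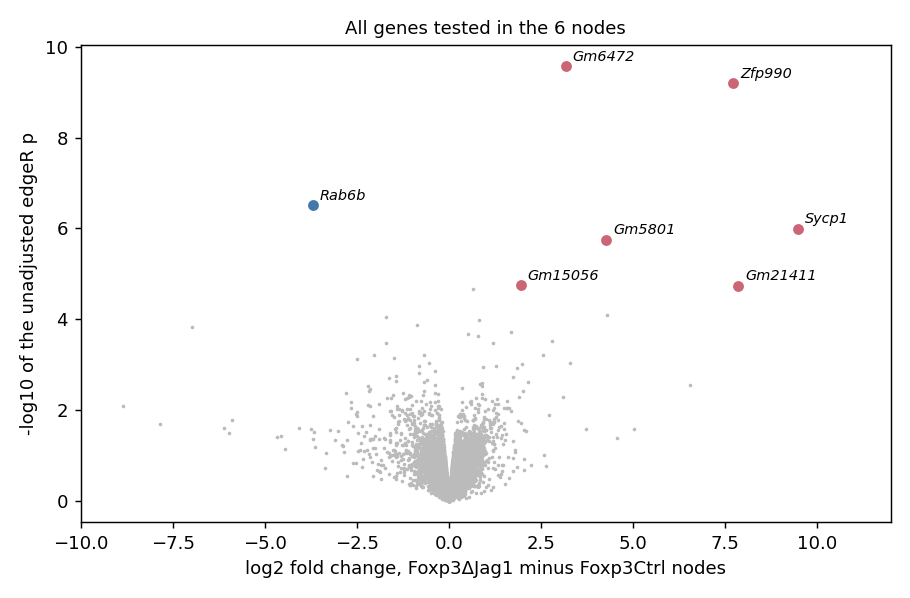
Each of the 18440 genes tested, by log2 fold change of Foxp3ΔJag1 over Foxp3Ctrl nodes (x axis) and by -log10 of its unadjusted edgeR p (y axis). The 6 genes called higher and the 1 called lower are named, and the other genes form a cloud below them.

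Rab6b was the gene called lower. It encodes a small GTPase of transport at the Golgi, best known from neurons, and lies on chromosome 9 (103111787 to 103185276). It was at 29.3, 25.2 and 42.5 CPM in Foxp3Ctrl nodes and at 3.05, 2.65 and 1.91 CPM in Foxp3ΔJag1 nodes, so the groups stood far apart. The fall was 12.9-fold (log2 fold change -3.69 ± 0.24 SE, edgeR adjusted p = 0.00189). The tumours of the control mice, matched to the nodes by library name, held Rab6b at 14.0, 16.7 and 24.7 CPM. Among the 18 tested genes of Rab6 and Golgi traffic, Rab6b was the single one called, and the median log2 fold change was -0.05. Its close relative Rab6a was at 75.7, 72.6 and 70.9 CPM and at 63.3, 70.2 and 71.6 CPM, with overlap and an unadjusted edgeR p of 0.174. None of the 24 genes tested within 2 Mb (megabases) of Rab6b had an unadjusted p under 0.05.

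Zfp990, a gene of the KRAB zinc finger cluster of distal chromosome 4 (145510759 to 145539188), was near absent from the control nodes, at 0.110, 0.0697 and 0.226 CPM. In the Foxp3ΔJag1 nodes it was at 28.2, 31.3 and 27.5 CPM, which is 212-fold higher (log2 fold change 7.73 ± 0.26 SE, edgeR adjusted p = 5.86e-06). The control tumours were at 0.0799, 0 and 0.0311 CPM, as low as the control nodes. Gm21411, another gene of this cluster (146892406 to 146909590), had no count in the control nodes and was at 0.729, 0.814 and 0.718 CPM in the Foxp3ΔJag1 nodes. Set against a floor of 3 counts over the summed control libraries, that is at least 28.7-fold higher, and the bound allows for counting error alone (edgeR adjusted p = 0.0481).

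Sycp1 encodes a protein of the synaptonemal complex, which joins paired chromosomes in meiosis (chromosome 3, 102818499 to 102936100). It had no count in the control nodes or in the control tumours and was at 2.21, 2.503 and 2.31 CPM in the Foxp3ΔJag1 nodes, which against the same floor is at least 89.3-fold higher (edgeR adjusted p = 0.00471). Of the 22 meiotic and germline genes on the list, 11 were high enough to be tested and Sycp1 alone was called. Among other genes of the complex, Sycp3 was at no more than 0.169 CPM in any node and Syce3 had no count, while Syce2 was at 6.14, 5.78 and 5.39 CPM in controls and at 4.45, 5.70 and 6.20 CPM in Foxp3ΔJag1 nodes, with overlap. The 48 genes tested within 2 Mb of Sycp1 held 1 with an unadjusted p under 0.05. Gm15056, on chromosome 8 (20900606 to 20902627), was at 1.18, 0.906 and 1.44 CPM in controls and at 5.05, 3.80 and 4.94 CPM in Foxp3ΔJag1 nodes, or 3.86-fold higher (edgeR adjusted p = 0.0481). The calls of Gm15056 and Gm21411 ended when any single node other than Foxp3Ctrl node 3 was left out.

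**Figure D3:**
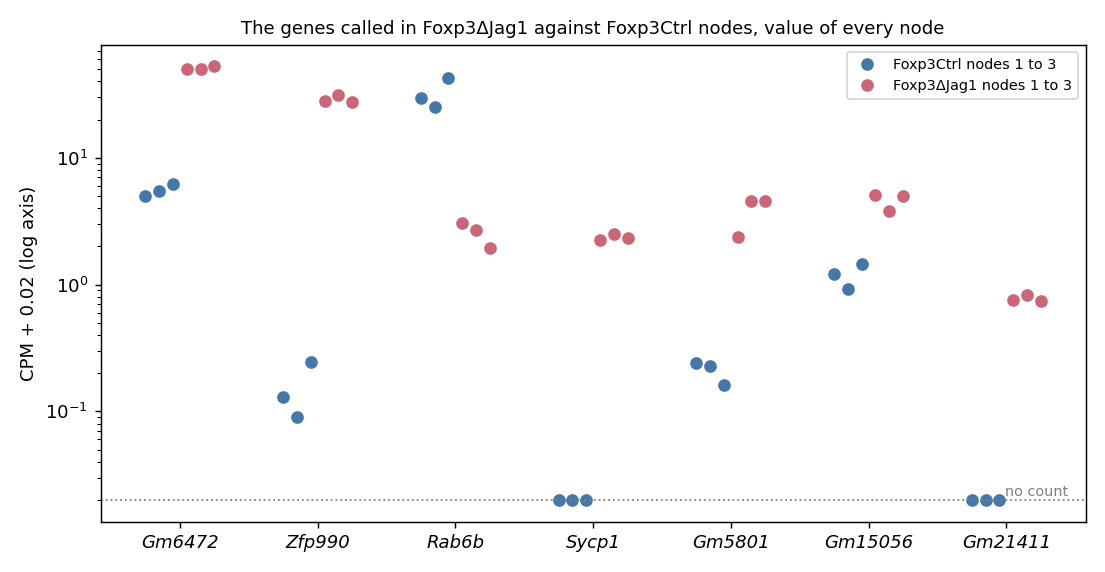
CPM plus 0.02 on a log axis of the 7 called genes, with 1 point for each of the 3 Foxp3Ctrl and 3 Foxp3ΔJag1 nodes. In each gene the groups do not overlap, and Sycp1 and Gm21411 have no count in any control node.

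The other 2 called genes are pseudogenes that copy a spliced messenger RNA, and each is almost letter for letter the transcript of an expressed gene. Gm6472, on the X chromosome (152909505 to 152910155), was at 5.01, 5.46 and 6.20 CPM in controls and at 49.9, 50.3 and 52.6 CPM in Foxp3ΔJag1 nodes, 9.02-fold higher (edgeR adjusted p = 4.96e-06). Its annotated transcript of 651 bases differs at 4 bases from Rps7, which encodes a protein of the small ribosomal subunit on chromosome 12. Gm5801, on chromosome 14 (56010536 to 56011315), was at 0.220, 0.209 and 0.141 CPM and at 2.37, 4.52 and 4.56 CPM, 19.3-fold higher (edgeR adjusted p = 0.00653). Its 780 bases differ at 6 from Ube2j2, which encodes a ubiquitin-conjugating enzyme of the endoplasmic reticulum and lies on distal chromosome 4 (155943831 to 155959604). The stretches are shown because a read can be told from the parent gene only where it covers a differing base, printed in capitals (GENCODE M21 transcripts, GRCm38, 5′ to 3′).
Gm6472, bases 36 to 96: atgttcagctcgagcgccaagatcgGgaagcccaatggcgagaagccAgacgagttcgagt
Rps7, bases 108 to 168: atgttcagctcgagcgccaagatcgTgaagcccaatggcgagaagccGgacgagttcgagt
Gm5801, bases 145 to 205: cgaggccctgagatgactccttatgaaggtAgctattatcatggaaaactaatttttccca
Ube2j2, bases 609 to 669: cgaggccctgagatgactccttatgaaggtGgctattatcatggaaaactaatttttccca

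Counted from the first base of Gm6472, with the base of Rps7 first, the 4 differences are G14A, T61G, G83A and G158T, and the last 3 fall in the coding part of Rps7. Those of Gm5801 against Ube2j2 are G175A, A273G, G390A, C589G, C678T and C735T, all in the coding part of Ube2j2. The parents were not called. Rps7 was at 1248, 1206 and 1284 CPM in controls and at 1135, 1185 and 1200 CPM in Foxp3ΔJag1 nodes (log2 fold change -0.11). Ube2j2 was at 74.9, 76.6 and 77.2 CPM and at 72.0, 73.3 and 70.8 CPM (-0.10). Both were lower in every Foxp3ΔJag1 node than in any control, with means of 1246 and 1173 CPM for Rps7 and of 76.2 and 72.0 CPM for Ube2j2. The means of the pseudogenes were 5.56 and 50.9 CPM for Gm6472 and 0.190 and 3.82 CPM for Gm5801. In these means each parent was lower by at least as much CPM as its copy was higher. The Rps7 controls alone spanned 1206 to 1284 CPM, and neither parent's difference was called (edgeR adjusted p = 0.953 for each). Whether reads passed between parent and copy was not tested. Per transcript alignment, Gm21411 shares 97.8% of 720 aligned bases with Zfp989 and 98.8% of 489 with each of Zfp987 and Zfp986. It also shares 88.9% of 732 with Zfp993. Zfp990 shares 91.9% of 1996 with Zfp988, 91.5% of 1994 with Zfp987, 90.7% of 2063 with Zfp989 and 90.5% of 2071 with Zfp534. Sycp1 shares 92.4% of 2560 with the pseudogene Sycp1-ps1. Sycp1-ps1 was at no more than 0.0603 CPM in any node. The sources used here do not say how reads shared by such copies were divided, and the counts of these genes are uncertain.

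Genes with small p-values were gathered on distal chromosome 4. Of 286 genes tested there, from Runx3 (start 135120652) to the end of the chromosome, 22 (7.69%) had an unadjusted p under 0.01, against 3 of 797 (0.376%) on the rest of it. On chromosome 8, from 15 to 35 Mb, 10 of 117 did (8.55%). Outside both regions, chromosomes 1 to 19 and X, with the rest of chromosome 4 among them, held 83 of 17949 (0.462%). The limits of both regions were drawn after the data were seen. Among the 22, 14 were higher and 8 lower in Foxp3ΔJag1 nodes. In windows of 5 Mb, 3 of 444 windows with at least 10 tested genes held 5 or more such genes: 11 of 74 genes from 145 to 150 Mb and 5 of 46 from 150 to 155 Mb on chromosome 4, and 5 of 43 from 20 to 25 Mb on chromosome 8. With single nodes left out, the share in the chromosome 4 region ran from 4.90% to 14.7%, and that in the chromosome 8 region from 4.27% to 14.5%. Foxp3Ctrl node 3 left out gave the highest of these. The share outside chromosome 4 and the chromosome 8 region was then also higher, at 4.56% against 0.47% with all nodes.

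Within the zinc finger cluster the genes moved in both directions, and apart from Zfp990 and Gm21411 none was called. Zfp534 was at 0, 0.0232 and 0.0846 CPM in controls and at 0.703, 0.965 and 0.629 CPM in Foxp3ΔJag1 nodes (edgeR adjusted p = 0.165). Zfp985 was at 0.633, 0.395 and 0.761 CPM and at 2.06, 1.78 and 2.04 CPM (edgeR adjusted p = 0.258). The opposite order held for Zfp984, at 33.8, 32.8 and 38.7 CPM and at 27.7, 25.8 and 28.5 CPM (log2 fold change -0.38). Lower values in all Foxp3ΔJag1 nodes were also found for Zfp987, Zfp991 and the pseudogene Znf41-ps, with log2 fold changes of -1.14, -0.61 and -0.81. Zfp989 was higher, at 0.138, 0.0697 and 0.0282 CPM in controls and at 0.312, 0.362 and 0.337 CPM in Foxp3ΔJag1 nodes (log2 fold change 2.03). Zfp534, Zfp987 and Zfp989 are alike in sequence to Zfp990, and Zfp987 and Zfp989 to Gm21411 as well, so their reads may not be separable. These genes were each counted among the 22 of the region with an unadjusted p under 0.01. Farther along the chromosome, 9430015G10Rik (156109982 to 156127265) lay just outside the threshold, at 29.7, 29.5 and 35.1 CPM in controls and at 51.8, 48.2 and 51.6 CPM in Foxp3ΔJag1 nodes (edgeR adjusted p = 0.0510). It was named after its values were seen.

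Other genes of the region with an unadjusted p under 0.01 are given next, none of which was called. They were picked by that p, and most genes tested in the region did not reach it. Tnfrsf14 encodes HVEM, the receptor shared by LIGHT, lymphotoxin and BTLA (154921933 to 154928563). It was at 34.5, 31.4 and 46.5 CPM in controls and at 67.1, 66.7 and 66.6 CPM in Foxp3ΔJag1 nodes (log2 fold change 0.82 ± 0.12 SE, edgeR adjusted p = 0.174). Hes5, a Notch target (154960923 to 154962371), was at 1.43, 1.51 and 1.41 CPM and at 2.34, 2.59 and 3.01 CPM (edgeR adjusted p = 0.953), and its overlapping transcript Gm20421 shared its direction. Pink1, a kinase that marks damaged mitochondria for removal (138313409 to 138326307), was at 87.2, 109.8 and 80.2 CPM and at 59.2, 58.9 and 60.7 CPM (edgeR adjusted p = 0.530). The other 15 mitophagy genes on its list included none with an unadjusted p under 0.05. Cfap74, a gene of cilia and flagella, was at 4.74, 4.76 and 2.51 CPM and at 1.28, 0.271 and 1.12 CPM, and 5830444B04Rik, which overlaps it, was lower as well (log2 fold changes of -2.18 and -2.65). Clcn6, an endosomal chloride transporter gene, was at 31.9, 32.5 and 39.1 CPM and at 52.3, 49.4 and 48.7 CPM (edgeR adjusted p = 0.267). Btla, the partner of HVEM, is on chromosome 16 and overlapped between groups, at 257 to 329 CPM in controls and 316 to 356 CPM in Foxp3ΔJag1 nodes.

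On chromosome 8, 5 of the 35 genes tested within 2 Mb of Gm15056 had an unadjusted p under 0.01, and all 5 were higher in Foxp3ΔJag1 nodes. The most abundant of them was the transcribed pseudogene 2610005L07Rik, at 14.5, 12.96 and 19.2 CPM in controls and at 27.5, 25.9 and 28.6 CPM in Foxp3ΔJag1 nodes (edgeR adjusted p = 0.270). Gm26804, Gm40466, Gm10060 and 6820431F20Rik were the others. Gm26804 overlaps 2610005L07Rik and 6820431F20Rik, so their reads may not be separable. Around Gm6472 none of 26 tested genes had an unadjusted p under 0.05, and around Gm5801 4 of 133 did.

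**Figure D4:**
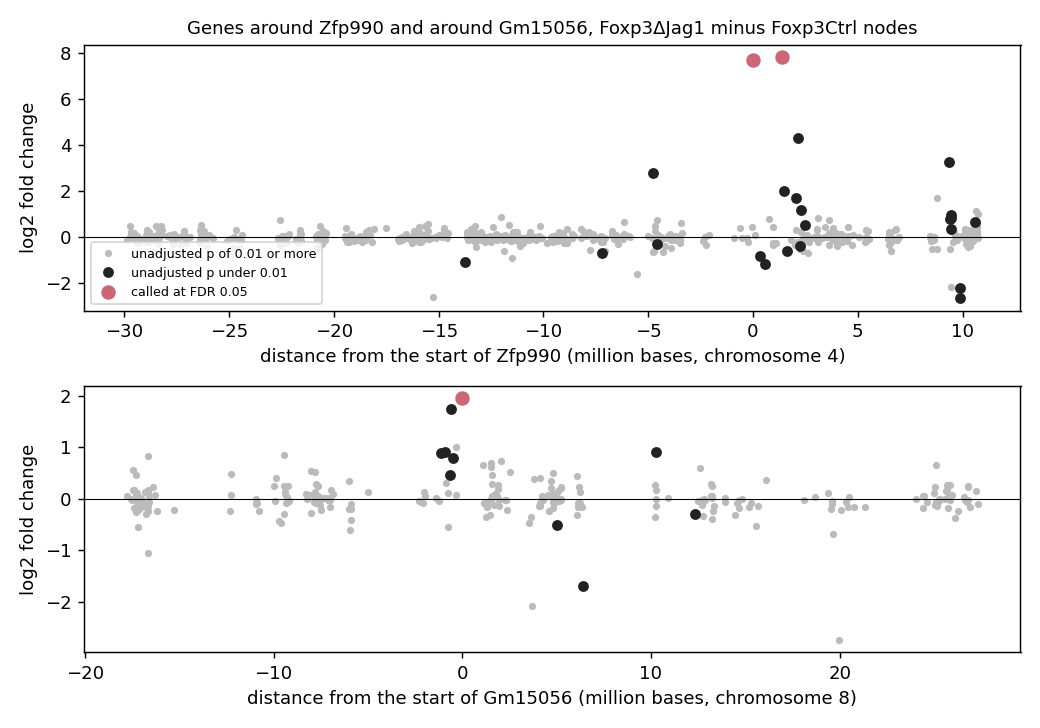
log2 fold change of Foxp3ΔJag1 over Foxp3Ctrl nodes (y axis) for each gene tested within 30 Mb, by distance of its start from the start of Zfp990 on chromosome 4 (upper) and of Gm15056 on chromosome 8 (lower). Called genes are large and red, genes with an unadjusted p under 0.01 are black, and black points gather close to each anchor and, on chromosome 4, again about 10 Mb away, with a few between.

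Genes of the Notch pathway lay close to 0 in this comparison. None of the 39 tested members of its 3 lists was called. The median log2 fold change was 0.02 over 5 ligands, -0.01 over 21 receptors and modifiers and -0.04 over 13 members of the transcription complex and targets, and each of these signs changed when a single node was left out. Among ligands, Dll4 was at 16.4, 21.3 and 14.4 CPM in controls and at 16.6, 14.8 and 15.3 CPM in Foxp3ΔJag1 nodes. Notch2, the most abundant receptor, was at 263, 291 and 275 CPM and at 251, 302 and 279 CPM. Adam10, the protease that makes the first activating cut in Notch, was at 182, 193 and 172 CPM and at 153, 162 and 173 CPM, with overlap. The Notch target Hes1 was at 12.9, 14.9 and 16.3 CPM and at 14.4, 13.3 and 12.5 CPM, so the order seen for Hes5 did not extend to it.

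Treg genes were split, with 12 higher and 11 lower of 23 tested, none called and a median log2 fold change of 0.01. Izumo1r, which encodes the folate receptor 4 of Tregs, was at 44.8, 50.5 and 48.2 CPM in controls and at 68.1, 55.4 and 50.2 CPM in Foxp3ΔJag1 nodes. Entpd1, which encodes CD39, was at 48.1, 62.1 and 45.4 CPM and at 44.9, 42.3 and 42.6 CPM, the one member below the controls in every Foxp3ΔJag1 node (edgeR adjusted p = 0.953). T cell genes had small positive differences in 20 of 24, with a median of 0.11 and none called. Cytotoxic lymphocyte genes had 13 of 20 higher with a median of 0.04. Of these, Eomes, a transcription factor of effector and memory cells, was at 44.5, 39.9 and 39.4 CPM and at 33.5, 34.4 and 36.4 CPM (edgeR adjusted p = 0.953). B cell and germinal centre genes had medians of -0.05 and -0.01, the latter being -0.19 without Foxp3ΔJag1 node 3. In bulk samples, fewer cells of a type and less RNA per cell cannot be told apart.

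The type I interferon genes were all on the positive side, though none was called. These genes are switched on by type I interferons and many code for antiviral effectors. All 24 had a positive log2 fold change with a median of 0.62, against -0.0045 over all genes, and 2 had an unadjusted p under 0.05. Ifit3 was at 14.4, 9.13 and 62.9 CPM in controls and at 23.9, 98.6 and 41.0 CPM in Foxp3ΔJag1 nodes. Isg15 was at 10.5, 8.08 and 29.4 CPM and at 12.6, 38.9 and 21.3 CPM. Single nodes stood apart in both groups: Foxp3ΔJag1 node 2 was highest for 23 of the 24 genes, Foxp3Ctrl node 3 was among the highest 2 nodes for 20, and Foxp3Ctrl node 2 was lowest for 23. The median was 0.17 without Foxp3ΔJag1 node 2 and 1.33 without Foxp3Ctrl node 3. Interferon gamma response genes, at a median of -0.02, did not share the pattern.

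The promoters of the interferon list were read because its members varied together from node to node. In the RefSeq table of promoters (GRCm38.p6, 250 bases before to 50 after the start of a gene), 16 of the 24 members were present, and 10 of these (62.5%) held the letters GAAANNGAAA on either strand. Of all 27025 promoters in the table, 1079 (3.99%) held them. A match is a description of the letters and not of binding. The share describes genes listed as interferon stimulated and was not a result of these nodes. Isg15, Ifit1 and Ifit3 are shown, with non-overlapping matches on either strand in capitals, and Isg15 lies on distal chromosome 4. In Isg15 the lower-case cc between the capitals completes a further match that overlaps the marked ones.
Isg15, chr4:156200769-156201068, minus strand: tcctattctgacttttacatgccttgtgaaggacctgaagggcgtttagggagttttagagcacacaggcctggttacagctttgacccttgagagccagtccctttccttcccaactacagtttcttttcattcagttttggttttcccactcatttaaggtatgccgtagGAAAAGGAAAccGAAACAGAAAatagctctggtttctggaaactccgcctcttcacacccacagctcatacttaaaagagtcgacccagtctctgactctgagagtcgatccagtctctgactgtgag
Ifit1, chr19:34640639-34640938, plus strand: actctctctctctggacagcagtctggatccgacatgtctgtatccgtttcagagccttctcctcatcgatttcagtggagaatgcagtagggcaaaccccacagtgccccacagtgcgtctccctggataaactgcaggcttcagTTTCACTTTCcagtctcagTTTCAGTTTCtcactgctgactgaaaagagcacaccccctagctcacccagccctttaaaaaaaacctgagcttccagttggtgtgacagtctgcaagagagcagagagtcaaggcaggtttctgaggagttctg
Ifit3, chr19:34583279-34583578, plus strand: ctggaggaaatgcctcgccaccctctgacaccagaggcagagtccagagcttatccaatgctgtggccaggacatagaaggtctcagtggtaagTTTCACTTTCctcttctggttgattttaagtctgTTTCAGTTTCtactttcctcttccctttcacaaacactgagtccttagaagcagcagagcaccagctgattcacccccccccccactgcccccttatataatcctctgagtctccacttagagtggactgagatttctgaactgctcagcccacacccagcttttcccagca

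Several lists were on the negative side throughout, each with one or more control nodes apart from the rest. Plasma cell genes were lower in 13 of 13, with a median of -0.34 and no member called. Xbp1, the transcription factor of antibody secretion, was at 290, 354 and 155 CPM in controls and at 224, 211 and 180 CPM in Foxp3ΔJag1 nodes, and Foxp3Ctrl node 3 was the lowest of all nodes for 11 of the 13 genes. Proliferation genes were lower in 22 of 22 with a median of -0.23, and Foxp3Ctrl node 1 was highest for 21 of them. Mki67, a marker of cycling cells, was at 233, 220 and 162 CPM and at 153, 165 and 217 CPM, so the groups overlapped. Without Foxp3Ctrl node 1 the median of the list was -0.08.

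Lymphatic endothelial genes, the vessels named in the title of the series, were lower in 14 of 17 with a median of -0.31. Foxp3Ctrl node 2 was highest for 12 of the 17 and Foxp3Ctrl node 3 lowest for 9, and the summed level was 447, 646 and 299 CPM in controls and 409, 374 and 394 CPM in Foxp3ΔJag1 nodes, within the range of the controls. Reln, a secreted protein of lymphatic endothelium, was at 14.1, 24.9 and 6.46 CPM in controls and at 12.1, 8.29 and 7.14 CPM in Foxp3ΔJag1 nodes. Piezo2 was at 6.86, 7.15 and 10.97 CPM in controls and at 4.14, 6.82 and 4.94 CPM in Foxp3ΔJag1 nodes (edgeR adjusted p = 0.953). Of the 17 genes, Piezo2 alone was below every control in all Foxp3ΔJag1 nodes, against 3.18% of all genes. It alone had an unadjusted p under 0.05, against 3.15% of all genes. Without Foxp3Ctrl node 2 the median turned to 0.05, and without Foxp3Ctrl node 3 it was -0.50. Sinus macrophage genes (14 of 16 lower, median -0.21) followed the same control nodes. Marco, a scavenger receptor of medullary macrophages, was at 241, 275 and 81.8 CPM and at 222, 178 and 207 CPM, and the median of the list turned to 0.15 without Foxp3Ctrl node 2. Collagen and matrix genes (20 of 24 lower, median -0.32) stayed negative with any single node left out, down to -0.04 without Foxp3Ctrl node 2.

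**Figure D5:**
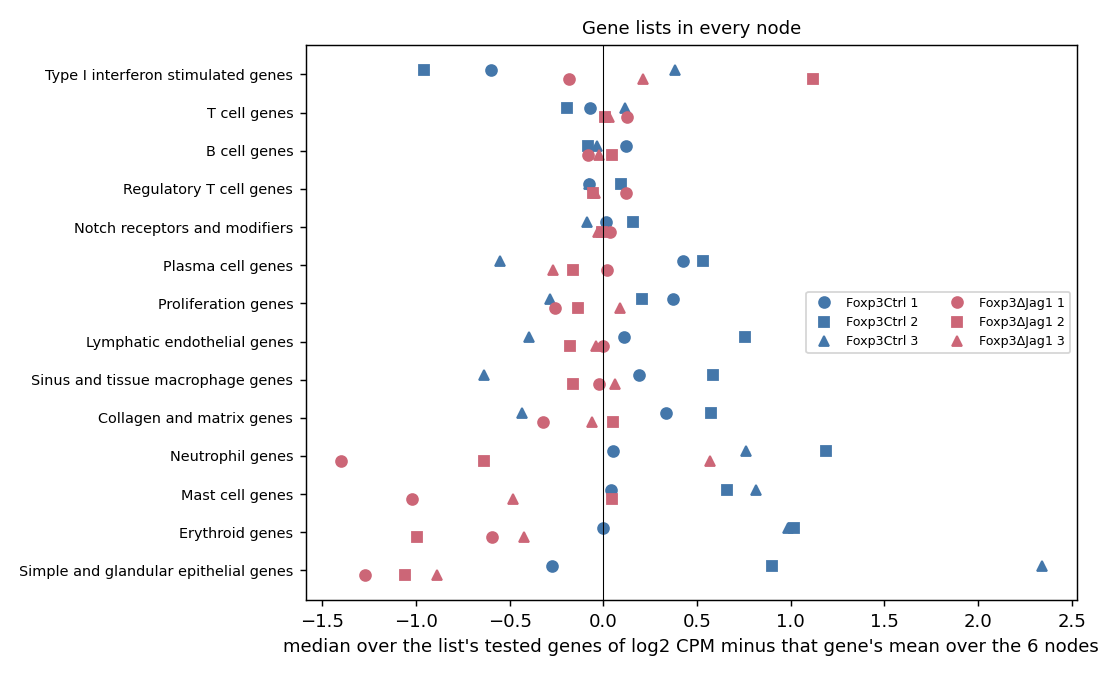
Median over the tested genes of each list of log2 CPM minus that gene's mean over the 6 nodes (x axis), for 14 lists (y axis), 1 point per node with the replicate number as its shape. Foxp3ΔJag1 node 2 is highest for the interferon list, Foxp3Ctrl nodes 2 and 3 take opposite ends of the lymphatic list, and Foxp3Ctrl nodes 2 and 3 are highest for the erythroid and epithelial lists.

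Mast cell genes were lower in 11 of 11, with a median of -0.995 and none called. An unadjusted p under 0.05 was reached by 7 of the 11, against 3.15% of all genes, and in 6 every Foxp3ΔJag1 node was below every control, against 3.18% of all genes. Tpsb2, a tryptase of mast cell granules, was at 6.42, 12.5 and 12.8 CPM in controls and at 3.54, 4.77 and 3.08 CPM in Foxp3ΔJag1 nodes (edgeR adjusted p = 0.569). Kit, the receptor of stem cell factor, was at 30.6, 34.6 and 38.0 CPM and at 28.6, 28.5 and 28.5 CPM. Mrgprb2, a receptor of connective tissue mast cells that is not on the list, was at 0.358, 0.348 and 0.479 CPM and at 0.0260, 0.0905 and 0.0898 CPM (edgeR adjusted p = 0.569). The list summed to 71.12, 97.12 and 105.7 CPM in controls and to 53.55, 70.63 and 58.01 CPM in Foxp3ΔJag1 nodes. Foxp3ΔJag1 node 2 and Foxp3Ctrl node 1 were alike. Their medians over the list of log2 CPM minus each gene's mean were 0.0465 and 0.043. The median log2 fold change of the list lay between -1.38 and -0.79 with single nodes left out.

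Erythroid and simple epithelial genes were mostly on the negative side, with none called. An unadjusted p under 0.05 was reached by 5 of 7 erythroid and 6 of 12 epithelial genes, against 3.15% of all genes. In 3 erythroid and 6 epithelial genes every Foxp3ΔJag1 node was below every control, against 3.18% of all genes. Of the 7 erythroid genes 6 were lower, with a median of -1.41, their summed level being 35.9 to 81.5 CPM in controls and 18.5 to 29.1 CPM in Foxp3ΔJag1 nodes. Hbb-bs, a beta globin, was at 15.9, 37.8 and 37.4 CPM and at 10.0, 6.73 and 11.99 CPM, and related globin genes share reads. Simple and glandular epithelial genes were lower in 12 of 12 with a median of -1.995, and summed to 43.7, 109 and 284 CPM in controls and to 25.4, 28.2 and 56.0 CPM in Foxp3ΔJag1 nodes. That median was -1.06 without Foxp3Ctrl node 3 and -2.89 without Foxp3ΔJag1 node 3. Keratinocyte genes were lower in 6 of 8 (median -0.19), and the 4 platelet genes tested were all higher (median 0.24). Prlr, the prolactin receptor, was at 3.75, 9.43 and 53.8 CPM and at 1.93, 1.93 and 1.41 CPM. Neutrophil genes were lower in 14 of 16, but Foxp3ΔJag1 node 3, at a summed 293 CPM, lay between the controls (181, 405 and 274 CPM). The neutrophil median was -0.91, with -2.11 without Foxp3ΔJag1 node 3 and -0.43 without Foxp3ΔJag1 node 1. The part of such other cells in the remaining results was not tested.

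Antibody genes differed from node to node far more than most genes. Of the 100 genes with the largest SD within groups among those with a mean of at least 10 CPM, 67 were immunoglobulin segments, which made up 129 of the 10149. Ighg2c was at 3100, 2033 and 470 CPM in controls and at 725, 657 and 471 CPM in Foxp3ΔJag1 nodes, with Foxp3Ctrl node 3 as low as the lowest Foxp3ΔJag1 node. Igha, the IgA constant gene, was at 40.6, 62.5 and 12.1 CPM and at 393, 26.7 and 289 CPM, high in 2 of the 3 Foxp3ΔJag1 nodes. Ighm and Ighd, the constant genes of unswitched B cells, were within 2309 to 3050 CPM and 741 to 980 CPM over all nodes. None of the 13 immunoglobulin constant genes of the tables had an unadjusted p under 0.05.

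Variable segments were lower in 128 of 192, with a median of -0.51. An unadjusted p under 0.05 was reached by 27 of the 192, against 3.15% of all genes. A p under 0.01 was reached by 9 (4.69%), against 0.629% of all genes, and none was called. The segments summed to 6900, 8961 and 2523 CPM in controls and to 4125, 4150 and 3359 CPM in Foxp3ΔJag1 nodes, so Foxp3Ctrl node 3 lay below every Foxp3ΔJag1 node. Ighv1-69 was at 28.6, 43.3 and 23.5 CPM in controls and at 9.79, 9.68 and 10.2 CPM in Foxp3ΔJag1 nodes (edgeR adjusted p = 0.166). Single segments dominated single nodes, such as Ighv1-15, at 32.6, 903 and 31.7 CPM in controls and at 55.3, 185 and 36.1 CPM in Foxp3ΔJag1 nodes. Segments of one family share sequence, so their counts are uncertain. T cell receptor variable segments were steadier, with a median SD within groups of 0.318 on the log2 scale against 0.997 for immunoglobulin variable segments.

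A further set of genes was at either a high or a low level in single nodes of both groups, as the plot of uneven genes shows. Rps13-ps1, a ribosomal pseudogene on chromosome 8, was at 0.0551, 26.2 and 33.3 CPM in controls and at 27.5, 30.2 and 0.0898 CPM in Foxp3ΔJag1 nodes. Gdpd3, a phospholipase gene on chromosome 7, was at 2.48, 44.7 and 59.1 CPM and at 51.0, 54.2 and 3.32 CPM. Both were low in Foxp3Ctrl node 1 and Foxp3ΔJag1 node 3 and high in the other 4 nodes, and Rps15a-ps7 on chromosome 2 shared that pattern. The tumour of Foxp3Ctrl mouse 1 was likewise the lowest of the control tumours for Gdpd3, at 1.86 CPM against 6.05 and 5.92 CPM. C1rb, a complement protease gene, was instead low in Foxp3Ctrl nodes 1 and 2 and Foxp3ΔJag1 node 3, at 1.16, 1.32 and 32.9 CPM in controls and 37.2, 38.4 and 0.965 CPM in Foxp3ΔJag1 nodes. Among the control tumours mouse 3 was again the highest, at 0.266, 0.220 and 4.51 CPM. They were picked by the size of their spread, so their levels are a description.

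Some adipocyte genes were also uneven. Car3 was at 0.110, 0.882 and 39.8 CPM in controls and at 58.6, 0.452 and 0.0674 CPM in Foxp3ΔJag1 nodes, and Cfd followed the same nodes. Of 9 tested adipocyte genes on the list 4 were higher and 5 lower, with a median of -0.0028. Fabp4, a fatty acid carrier gene, was at 19.0, 80.1 and 131.5 CPM and at 153.6, 21.8 and 19.1 CPM, whereas Pnpla2, a triglyceride lipase gene, was at 73.0, 103.3 and 81.0 CPM and at 97.5, 82.4 and 78.0 CPM. Of the other genes with small p-values, Unc5cl was at 10.7, 12.3 and 12.8 CPM and at 7.26, 6.06 and 6.67 CPM (edgeR adjusted p = 0.203). Wnt5a, a secreted signalling protein, was at 4.02, 4.04 and 4.12 CPM and at 2.16, 2.32 and 2.63 CPM (edgeR adjusted p = 0.859). Acp1, a small tyrosine phosphatase gene, was at 31.3, 27.9 and 28.0 CPM and at 18.0, 20.9 and 22.0 CPM (edgeR adjusted p = 0.659).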

How the data were processed

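Whole-node RNA was sequenced from 3 Foxp3Ctrl and 3 Foxp3ΔJag1 mice, all batch 1, from RNA with an integrity number over 9.0, per the labels' protocols. These protocols do not settle whether poly(A) selection or ribosomal RNA depletion was used. The authors deposited raw counts of reads per gene. The submitters' processing notes name Trimmomatic 0.36, STAR 2.5.2b, featureCounts of Subread 1.5.2 and GRCm38. The annotation used for counting, and whether strand was used, are not given in the sources here. Of 49315 gene identifiers, 49056 matched GENCODE M21, the source of symbols and positions. In the tables, 3 tumour columns match no label and were not used.

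The main test was edgeR 4.0.16 in R 4.3.3 (quasi-likelihood, TMM, filterByExpr, robust dispersion), with p-values adjusted by Benjamini-Hochberg across every gene tested. CPM in the text uses total counts. Errors of fold changes are SE, derived from the log2 fold change and the F value of the quasi-likelihood test, as are the intervals. The members and lists were chosen with earlier results of these data known. Named genes were Jag1, Foxp3, every called gene, the 12 smallest p-values in each direction among genes not called (leaving out Gm and Rik names), for each of 36 lists the 2 most abundant members and that with the smallest p, the 12 genes with the largest spread within groups, genes with p under 0.01 within 2 Mb of a called gene, and 7 immunoglobulin constant genes. Other genes were named after their values were seen. Transcripts were compared with blastn 2.17.0. Alternatives were DESeq2 1.42.0, limma 3.58.1, other scalings, filters and dispersions, a replicate block, a joint fit with control tumours and leaving out single nodes. The tests were checked on counts made with known changes. Floors cover counting error only, and intervals of fold changes include the spread between nodes.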

Additional observations from a re-analysis of the deposited data

How the results depend on the processing

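The count of genes called higher in Foxp3ΔJag1 nodes was 6, and that of genes called lower was 1. The counts called higher and lower were 27 and 43 with DESeq2, 12 and 5 with limma voomWithQualityWeights, 7 and 2 with limma-voom, and 13 and 3 with no filter on low counts. They were 4 and 1 at a CPM of at least 1 in 3 nodes, with library size only and with non-robust dispersion. Leaving out single nodes gave 5 to 13 higher and 1 to 10 lower, with the most lower calls without Foxp3Ctrl replicate 3. With the replicate number as a block there were 6 higher and 5 lower. Same-numbered nodes did not deviate together (correlations of -0.165, 0.034 and -0.124), so the numbers were not taken as pairs. The cause of these differences was not tested. Gm6472, Zfp990, Rab6b, Sycp1 and Gm5801 were called under every alternative run. Gm15056 lost its call under 9 of 16 alternatives and Gm21411 under 8 of 15. Over 48 named genes and 760 values under alternatives, 2 changed sign, both for Jag1: its log2 fold change was -0.006 without Foxp3Ctrl replicate 1 and -0.0786 without Foxp3ΔJag1 replicate 1, within a range of -0.0786 to 0.122 over single nodes left out. The median log2 fold change of all genes ran from -0.0129 in the joint fit to 0.0183 with library size only. With 3 nodes a group, the 95% interval of a log2 fold change extended in the median gene by 0.348 to either side. Changes smaller than this could not be told from no change in the median gene, even before adjustment. Calls were made after adjustment across every gene tested, so larger changes could be missed as well. Tnfrsf14 was not called at a log2 fold change of 0.82, with a 95% interval of 0.54 to 1.09. A gene that was not called may therefore have changed by more than 0.348.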
